A study of Mus musculus with 4 samples.

Results

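The 9 genes described here act in the storage, release and production of glucose by the liver, and they were taken by symbol from the 55488 genes of the deposited matrices. They are the regulatory subunit genes Ppp1r3b, Ppp1r3c and Ppp1r3g, the enzyme genes Gys2, Pygl, Fbp1 and Tat, the transporter gene Slc2a2 and the coactivator gene Ppargc1a. All 9 were found in the matrices, and all 9 had enough UMIs (unique molecular identifiers, each standing for 1 captured RNA molecule) to be compared in hepatocytes. The data are droplet-based single-cell RNA profiles, read from the 3' ends of transcripts, of mouse liver cells from 4 libraries, each made from 1 mouse of a different genotype. The study asks how loss of the transcriptional coactivators YAP and TAZ in hepatocytes and biliary epithelial cells (BECs) alters the other cells of the liver. The groups were wildtype (WT), YAPKO (floxed Yap deleted by Cre recombinase under the albumin promoter), TAZKO (floxed Taz, gene symbol Wwtr1, deleted in the same way) and DKO (both deleted). No treatment was given, and the labels state no age, sex or sampling time for these mice. Livers were digested with collagenase, and purified hepatocytes and non-parenchymal cells were mixed again before loading.

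Hepatocytes store glucose as glycogen after a meal and return it to the blood between meals. Glycogen synthase adds glucose units and glycogen phosphorylase removes them. Protein phosphatase 1, brought to the glycogen particle by targeting subunits, switches the synthase on and the phosphorylase off, and when glycogen runs low hepatocytes make glucose anew from lactate and amino acids.

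The deposited matrices held 66259687 UMIs in 13657 barcodes of WT, 85989454 in 7711 of YAPKO, 49022089 in 14418 of TAZKO and 77411746 in 9188 of DKO. Barcodes were required to have from 500 to 6000 genes with a UMI and no more than 10% of UMIs from mitochondrial genes, which left 7155, 6275, 8638 and 8294 cells in the same order. Hepatocytes were the kept cells in which Alb, Apoa1, Ttr and Apoc3 together made up at least 3% of UMIs, and they numbered 2254, 1159, 3112 and 2925. Between 2% and 3%, just outside this limit, lay 97, 51, 180 and 205 kept cells, and between 3% and 4%, just inside it, lay 52, 94, 138 and 297. Pairs of libraries shared from 9 to 26 kept barcodes, at most 0.363% of the smaller library.

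The libraries stood apart in depth and in RNA composition. Hepatocytes had a median of 2166.5 UMIs in WT, 6457 in YAPKO, 1854.5 in TAZKO and 6475 in DKO. Hepatocytes with under 1% mitochondrial UMIs made up 76.0% of hepatocytes in WT, 49.4% in YAPKO, 55.9% in TAZKO and 62.2% in DKO, and they held 28.9%, 16.3%, 25.1% and 35.0% of the hepatocyte UMIs. The level of Yap1 in hepatocytes was 21.2 CPM (UMIs of a gene scaled to a fixed total of UMIs from the same cells) in WT, 4.55 in YAPKO, 46.3 in TAZKO and 4.67 in DKO, and that of Wwtr1 was 5.58, 13.5, 3.34 and 2.89. Yap1 was thus low in both libraries labelled with its deletion, and Wwtr1 was lowest in both libraries labelled with its own, although reads from the 3' end may also come from recombined alleles.

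With 1 library per genotype, no difference between genotypes could be tested, and every value below compares libraries. Levels are summed UMIs of all hepatocytes of a library in CPM with exact 95% Poisson intervals, and ratios carry exact conditional binomial intervals. Both cover counting error only. The median log2 ratio to WT over all genes with at least 100 UMIs in the pair of libraries was 0.40 in YAPKO, 0.60 in TAZKO and 0.46 in DKO, and a gene was counted as higher or lower when its ratio, with 1 UMI added to each count, lay at least 2-fold from that median.

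Under this setting the members past the limit were the 3 targeting subunits of protein phosphatase 1 and Fbp1, and other members passed it under alternatives given below. In YAPKO, 1 of 9 members was higher, Ppp1r3g, against 1.59% of 9313 genes, and 0 were lower, against 1.39%, so that 1 of 9 lay past the limit in either direction against 2.97%. In TAZKO, 3 of 9 were higher, Ppp1r3b, Ppp1r3c and Ppp1r3g, against 3.63% of 9434 genes, and 1 was lower, Fbp1, against 5.44%, which gives 4 of 9 in either direction against 9.06%. In DKO, 1 of 9 was higher, Ppp1r3g, against 4.78% of 10160 genes, and 2 were lower, Ppp1r3b and Ppp1r3c, against 3.78%, which gives 3 of 9 in either direction against 8.56%. The 3 comparisons share the WT library. Ppp1r3g had 20 UMIs in WT, so it met the minimum of 100 UMIs only through the library where it was high. Its calls as higher are therefore not independent of that minimum, and the shares of all genes are no measure for them. With a minimum of 20 UMIs, which its WT count met alone, it was also higher in all 3 libraries. Of members near the limit, Ppp1r3b in DKO (-1.01 relative to the median, log2) and Fbp1 in TAZKO (-1.05) lay just past it, and Tat in DKO (0.94) and in YAPKO (0.92) lay just short of it. Without subtracting the median, Tat was also past 2-fold in all 3 libraries, Gys2 and Slc2a2 were past it in DKO, and Fbp1 in TAZKO and Ppp1r3b in DKO were not. Over 13 alternatives in the choice of cells, scaling and counting, Ppp1r3g in DKO and Ppp1r3b and Ppp1r3c in TAZKO stayed past the limit in each. Ppp1r3g had too few UMIs to be counted in YAPKO in 3 of them and in TAZKO in 5, and Fbp1 in TAZKO fell short in 4. Ppp1r3b in DKO fell short or had too few UMIs in 5, and the same held for Ppp1r3c in DKO in 3. Calls were also gained: Tat was higher past the limit in DKO in 7 of the 13, in YAPKO in 4 and in TAZKO in 3, and in DKO Slc2a2 was higher in 5 and Gys2 in 4.

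**Figure D1:**
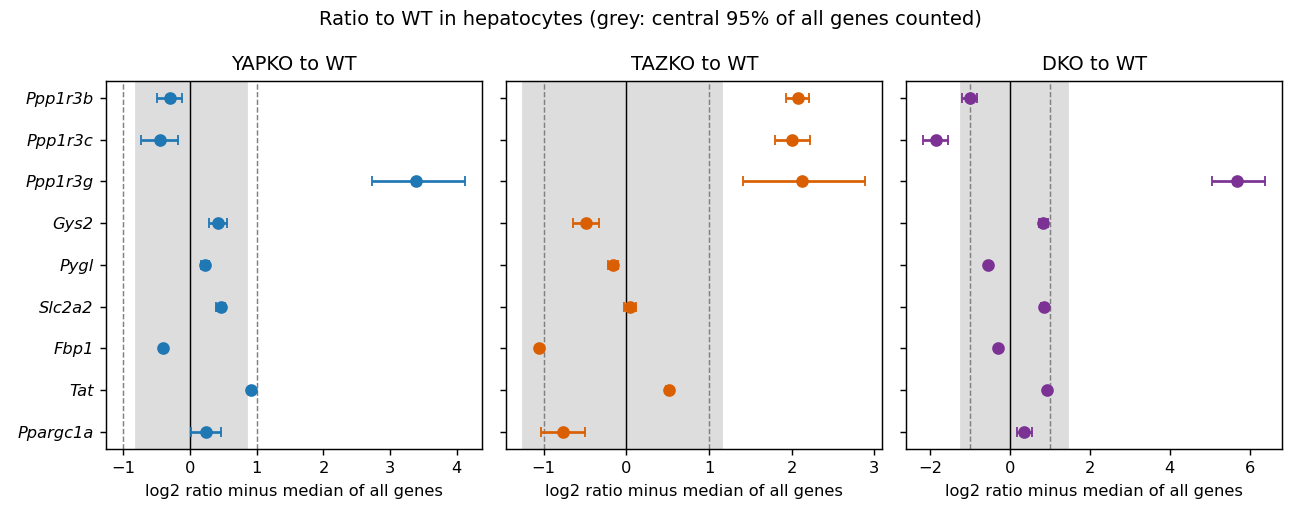
Log2 ratio to WT of each member in hepatocytes (horizontal axis) after subtraction of the median of all genes (solid line), with 95% counting intervals, 2-fold limits (dashed lines) and the central 95% of all genes compared (grey). Ppp1r3g lay to the right of the upper limit in all 3 libraries, while Ppp1r3b and Ppp1r3c lay above it in TAZKO and below the lower limit in DKO.

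Ppp1r3g encodes a subunit that targets the phosphatase to glycogen. Its level in hepatocytes was 1.04 CPM in WT (95% interval 0.637 to 1.61, from 20 UMIs), 14.4 in YAPKO (12.7 to 16.4, 244 UMIs), 6.89 in TAZKO (5.60 to 8.39, 99 UMIs) and 73.1 in DKO (70.1 to 76.1, 2298 UMIs). The order of these levels was WT, TAZKO, YAPKO and DKO, and no interval overlapped another, but YAPKO (7.96 to 16.4 CPM) and TAZKO (5.60 to 11.9 CPM) overlapped in hepatocytes with under 1% mitochondrial UMIs, as did their shares of thinned cells given below. The log2 ratio to WT was 6.13 in DKO (5.50 to 6.84), 3.79 in YAPKO (3.13 to 4.53) and 2.72 in TAZKO (2.02 to 3.50). These intervals are wide because the WT value rests on 20 UMIs, and over the alternatives the ratio ranged from 5.56 to 7.45 in DKO, from 3.17 to 5.01 in YAPKO and from 2.12 to 4.83 in TAZKO. The upper ends come from settings with few WT UMIs, such as 2 in hepatocytes with under 1% mitochondrial UMIs, and set no size for the difference. In DKO the UMIs came from many cells, and the cell with the most held 18 of them.

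Ppp1r3b encodes the main glycogen-targeting subunit of the liver, known as GL. Its level was 25.3 CPM in WT (23.1 to 27.7), 27.1 in YAPKO (24.7 to 29.7), 162 in TAZKO (155 to 169) and 17.2 in DKO (15.8 to 18.7). TAZKO was 6.39-fold above WT, DKO lay below every other library, and WT and YAPKO overlapped. The log2 ratio to WT was 2.68 in TAZKO (2.53 to 2.82) and -0.56 in DKO (-0.74 to -0.38), and over the alternatives it ranged from 2.39 to 3.79 and from -0.95 to -0.28. Ppp1r3c encodes a further targeting subunit, known as PTG, and its level was 12.3 CPM in WT (10.8 to 14.0), 11.9 in YAPKO (10.3 to 13.7), 75.3 in TAZKO (70.9 to 79.9) and 4.64 in DKO (3.92 to 5.46). Like Ppp1r3b it was highest in TAZKO, at 6.12-fold above WT, and lowest in DKO, at 2.65-fold below WT, with WT and YAPKO overlapping. Over the alternatives its log2 ratio ranged from 2.36 to 3.68 in TAZKO and from -1.71 to -0.30 in DKO.

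**Figure D2:**
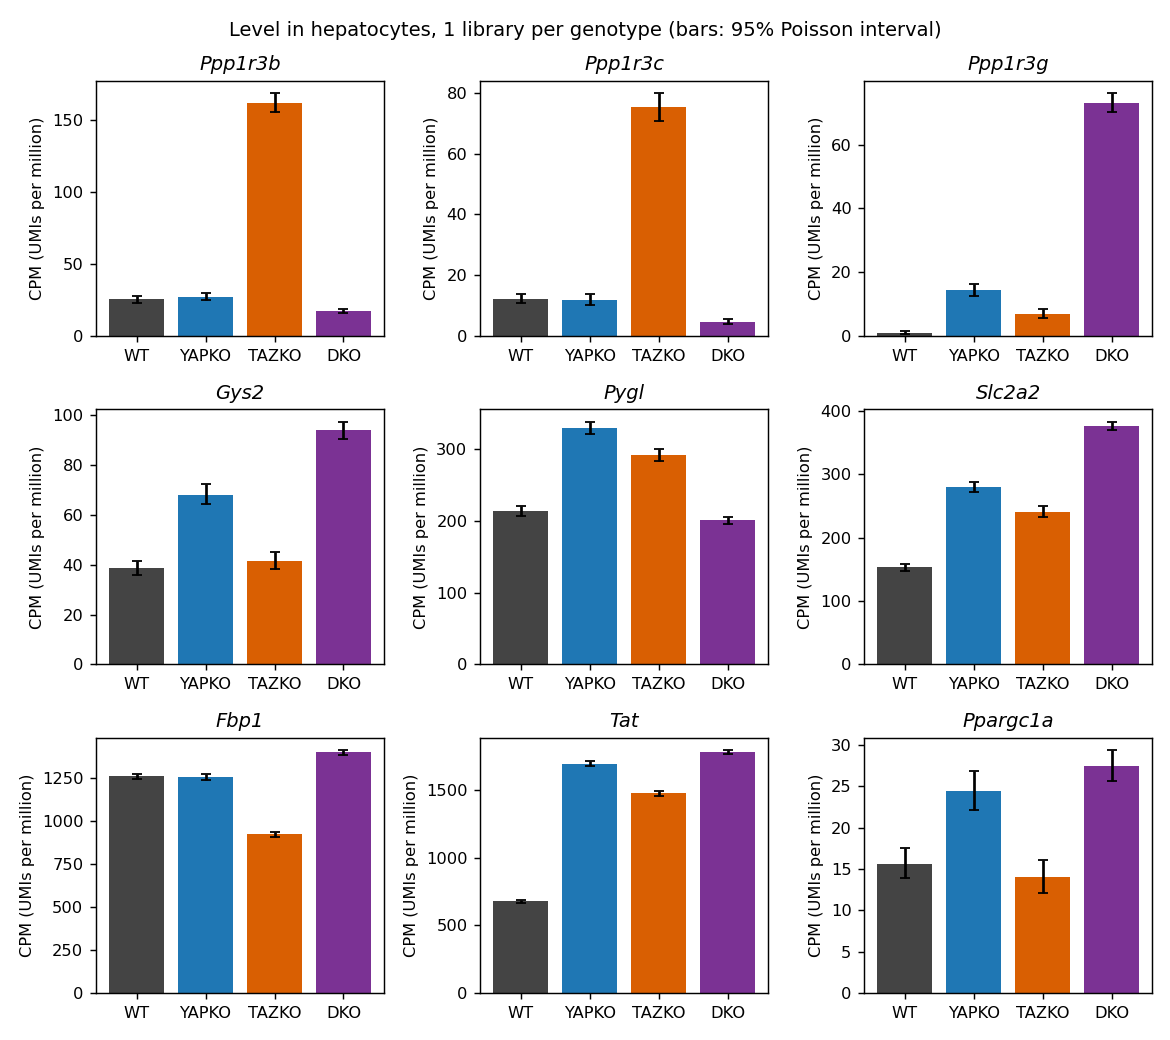
Level of each member in hepatocytes of the 4 libraries in CPM, with bars starting at 0 and whiskers for the 95% Poisson interval. Ppp1r3b reached 162 CPM and Ppp1r3c 75.3 CPM in TAZKO, and Ppp1r3g reached 73.1 CPM in DKO.

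Promoter sequence was available from RefSeq (build GRCm38.p6) for 7 of the 9 members, all but Ppp1r3b and Gys2. Those of Ppp1r3g and Ppp1r3c are printed because, of these 7, they had the largest ratios to WT. Each run covers the 250 bases before the start given by RefSeq, 5' to 3' on the gene's strand, at chr13:35967656-35967905 (plus strand) for Ppp1r3g and at chr19:36736605-36736854 (minus strand) for Ppp1r3c. In the GENCODE M21 annotation Ppp1r3g spans chr13:35958839-35970388 with 3 transcripts. Its run thus lies inside the gene, and another annotated start lies upstream. Capitals mark matches to any of the 7 motifs searched.
Ppp1r3g: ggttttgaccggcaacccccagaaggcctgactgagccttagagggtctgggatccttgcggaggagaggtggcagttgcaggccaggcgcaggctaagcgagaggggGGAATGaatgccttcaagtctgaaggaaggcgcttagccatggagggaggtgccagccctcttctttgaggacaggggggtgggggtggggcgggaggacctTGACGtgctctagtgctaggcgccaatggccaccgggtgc
Ppp1r3c: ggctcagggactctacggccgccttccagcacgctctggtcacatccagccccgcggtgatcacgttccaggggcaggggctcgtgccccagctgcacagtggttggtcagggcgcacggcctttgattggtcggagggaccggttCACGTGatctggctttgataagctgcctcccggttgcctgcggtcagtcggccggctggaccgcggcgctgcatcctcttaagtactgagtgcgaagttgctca
On either strand the motifs were the TEAD motif (CATTCC or GGAATG, in 12.6% of 32851 promoters), the cAMP response element (CRE, TGACGTCA, 1.55%), its short form (TGACG or CGTCA, 17.8%), the E-box (CACGTG, 6.02%), the D-box (TTATGTAA, TTACATAA or TTACGTAA, 0.931%), the ROR element (AGGTCA or TGACCT, 14.0%) and the TATA box (TATAAA or TTTATA, 12.4%). A CRE contains its short form on both strands. The Ppp1r3g run held GGAATG at -142 to -137 and TGACG at -40 to -36, counted from the start, and the Ppp1r3c run held CACGTG at -104 to -99. Of the other promoters, that of Pygl held the short CRE (-44 to -40) and an ROR element (-128 to -123), that of Slc2a2 an ROR element (-21 to -16), that of Ppargc1a the short CRE (-49 to -45), and those of Fbp1 and Tat none of the 7. The Pygl stretch (chr12:70227684-70227933, minus strand) also lies inside its gene in that annotation (70190811 to 70231488). A match is a stretch of letters and was not tested as a binding site.

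Gys2 encodes the liver glycogen synthase. Its level was 38.5 CPM in WT (35.8 to 41.4), 68.1 in YAPKO (64.3 to 72.2), 41.7 in TAZKO (38.4 to 45.2) and 93.9 in DKO (90.6 to 97.4). DKO was highest and YAPKO second, while the intervals of WT and TAZKO overlapped. Pygl encodes the liver glycogen phosphorylase, with 214 CPM in WT (207 to 220.4), 329 in YAPKO (320.5 to 338), 291 in TAZKO (283 to 300.3) and 201 in DKO (196 to 206). YAPKO and TAZKO lay above WT, and DKO lay just below it, though over the alternatives the DKO ratio ranged from -0.39 to 0.43 (log2) and that in TAZKO from 0.20 to 1.21. The ratio of Gys2 ranged from 0.53 to 1.30 in YAPKO, from -0.23 to 1.38 in TAZKO and from 0.98 to 1.95 in DKO. Relative to the median of all genes, the log2 ratio of Gys2 was 0.42 in YAPKO, -0.49 in TAZKO and 0.83 in DKO, and that of Pygl was 0.22, -0.16 and -0.55.

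Slc2a2 encodes GLUT2, through which glucose crosses the hepatocyte membrane. It stood at 153 CPM in WT (148 to 159), 279 in YAPKO (271 to 287), 241 in TAZKO (233 to 249) and 376 in DKO (369 to 383). All 3 knockout libraries lay above WT, DKO highest. After subtraction of the median, the log2 ratio was 0.46 in YAPKO, 0.05 in TAZKO and 0.84 in DKO. Before subtraction it ranged over the alternatives from 0.34 to 1.30 in YAPKO, from 0.40 to 1.76 in TAZKO and from 0.79 to 1.72 in DKO.

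Fbp1 encodes fructose-1,6-bisphosphatase, an enzyme of glucose production. Its level was 1259 CPM in WT (1243 to 1275), 1255 in YAPKO (1238 to 1272), 922 in TAZKO (906 to 938) and 1399 in DKO (1386 to 1412). TAZKO was lowest, with a log2 ratio of -0.45 before and -1.05 after subtraction of the median, and WT and YAPKO overlapped. Tat encodes tyrosine aminotransferase, which starts the breakdown of tyrosine and is a classic target of glucocorticoids. It measured 678 CPM in WT (667 to 690.1), 1694 in YAPKO (1674 to 1713), 1475 in TAZKO (1456 to 1495) and 1779.95 in DKO (1765 to 1795). All 3 knockout libraries lay above WT, with log2 ratios of 1.32, 1.12 and 1.39 before and 0.92, 0.52 and 0.94 after subtraction of the median. Over the alternatives the ratio before subtraction ranged from 0.40 to 1.64 in YAPKO, from 0.87 to 2.10 in TAZKO and from 1.09 to 1.90 in DKO. Ppargc1a encodes PGC-1alpha, a coactivator of genes of glucose production and mitochondria. It was at 15.6 CPM in WT (13.9 to 17.5), 24.4 in YAPKO (22.1 to 26.8), 14.0 in TAZKO (12.1 to 16.1) and 27.5 in DKO (25.7 to 29.4). YAPKO and DKO lay above WT, and TAZKO overlapped WT. Relative to the median, in hepatocytes with at least 1% mitochondrial UMIs, the log2 ratio of Ppargc1a was 0.20 in YAPKO, -0.73 in TAZKO and 0.58 in DKO. Over the alternatives the log2 ratio of Ppargc1a ranged from -0.77 to 1.13 in YAPKO, from -0.41 to 0.76 in TAZKO and from -0.22 to 1.21 in DKO, and that of Fbp1 in DKO from -0.15 to 0.74. The negative values of Ppargc1a in YAPKO and DKO come from hepatocytes with under 1% mitochondrial UMIs, where it had too few UMIs to be counted and both intervals spanned 0. That of Fbp1 comes from scaling without the 50 most abundant genes.

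Hepatocytes with few mitochondrial UMIs differed in several members, and the part of this split in the ratios was not tested. The limit of 1% was chosen after the data were seen. Malat1, a nuclear RNA also chosen then, stood at 2038, 897, 7189 and 741 CPM (WT, YAPKO, TAZKO, DKO) below the limit and at 3494, 3697, 6039.5 and 4995 CPM above it, so it was lower in the cells with few mitochondrial UMIs in WT, YAPKO and DKO but not in TAZKO. Slc2a2 stood at 48.0, 60.7, 142 and 82.9 CPM in hepatocytes under 1% and at 196, 321, 274 and 533 CPM in those with at least 1%. Tat stood at 263, 347, 1131 and 707 CPM below the limit and at 847, 1955, 1591 and 2356 CPM above it. Both genes were thus lower in the cells with few mitochondrial UMIs in every library. Fbp1 went the other way in WT (1424 against 1192 CPM), YAPKO (1428 against 1221 CPM) and DKO (1738 against 1217 CPM), but not in TAZKO (762 against 975 CPM). Ppargc1a fell to between 2.55 and 6.09 CPM below the limit, from 7 to 41 UMIs a library.

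The ratios past 2-fold were read on each side of the same limit. Ppp1r3g in DKO had a log2 ratio to WT of 5.89 (5.23 to 6.65) in hepatocytes with at least 1% mitochondrial UMIs and of 7.45 (5.60 to 10.50) in the others, where WT held 2 UMIs. Ppp1r3b in TAZKO had 2.39 (2.23 to 2.54) and 3.79 (3.42 to 4.18), and Ppp1r3c in TAZKO had 2.36 (2.14 to 2.59) and 3.68 (3.12 to 4.29). These members lay above WT on both sides. Tat in TAZKO had 0.91 in cells with at least 1% and 2.10 in the others, where it passed the limit after subtraction of the median, while Tat and Slc2a2 in DKO passed it in cells with at least 1% (1.07 and 1.04 relative to the median) and not in the others (0.75 and 0.11). Fbp1 in TAZKO had -0.73 relative to the median in cells with at least 1%, short of the limit, and -1.68 in the others, past it. Ppp1r3g in YAPKO had 3.50 (2.81 to 4.29) in cells with at least 1% and too few UMIs to be counted in the others, and in TAZKO it had too few on both sides. Ppp1r3b in DKO fell short of the limit in cells with at least 1% (-0.82 relative to the median) and passed it in the others (-1.62). Ppp1r3c in DKO had -1.45 (-1.79 to -1.11) in cells with at least 1% and -0.85 (-1.62 to -0.07) in the others, where it had too few UMIs to be counted.

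**Figure D3:**
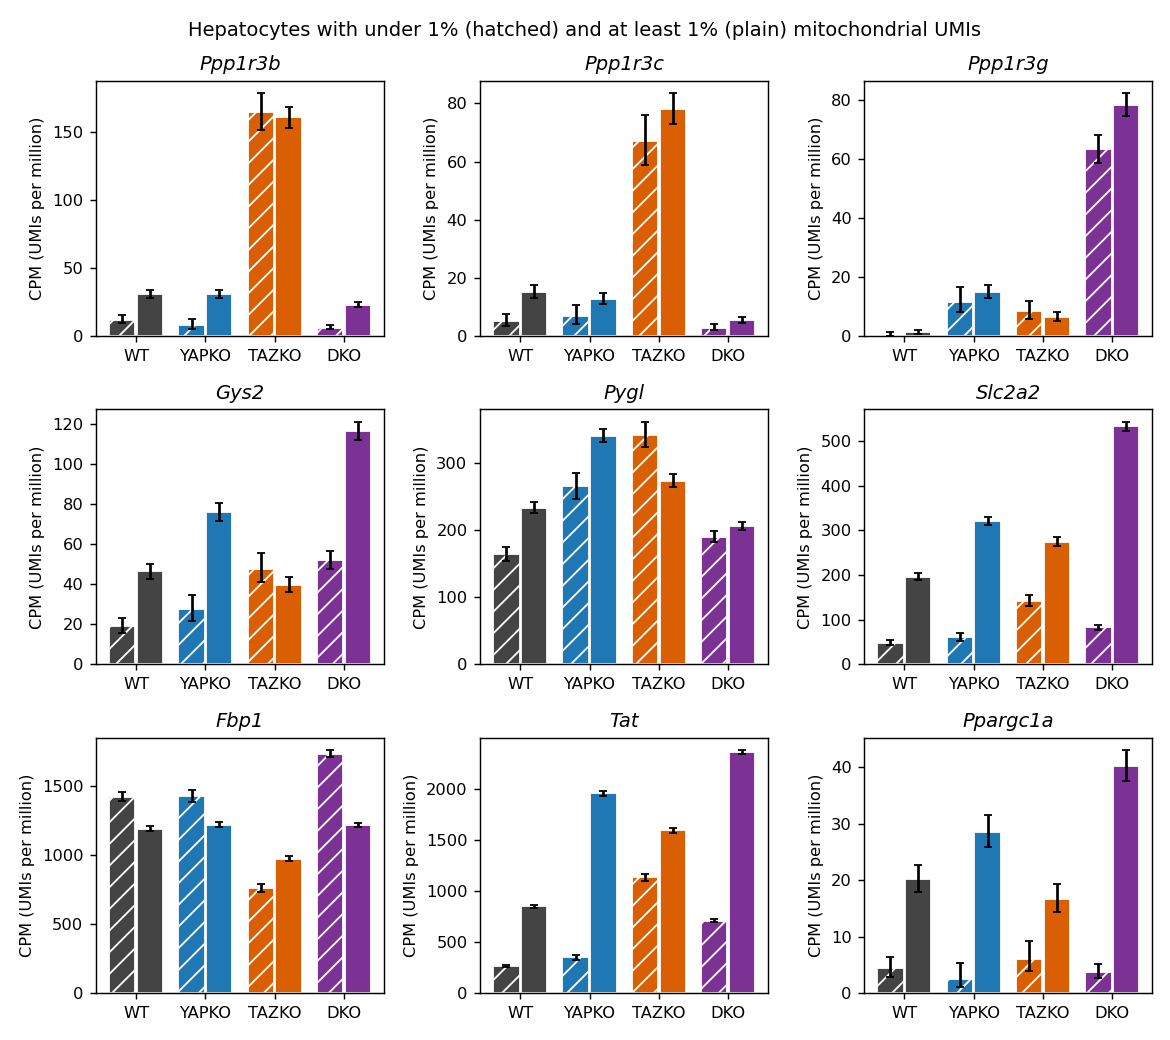
Level of each member in CPM in hepatocytes with under 1% (hatched bars) and at least 1% (plain bars) mitochondrial UMIs, with 95% Poisson intervals. Slc2a2 in DKO stood at 82.9 and 533 CPM, while Ppp1r3b in TAZKO stood at 165 and 161 CPM.

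The share of hepatocytes with at least 1 UMI depends on depth, so it was also taken in cells with at least 2000 UMIs, each thinned to 2000. This left out 935 of the 2254 hepatocytes of WT, 144 of 1159 of YAPKO, 1679 of 3112 of TAZKO and 334 of 2925 of DKO, so the thinned shares describe the deeper cells. For Ppp1r3g the share was 0.799% in WT, 15.0% in YAPKO, 2.96% in TAZKO and 37.2% in DKO at the full depths given above, and 0.152%, 2.27%, 2.23% and 12.3% after thinning. In B cell-like clusters, which should lack it, thinning left 0 of 399, 0 of 404, 2 of 510 and 0 of 213 cells with a UMI, from median depths of 2919.5, 2862, 2805 and 2146 UMIs. In the deeper EC-like (endothelial cell-like) clusters of WT, 0 of 1573 cells held a UMI at full depth (upper limit 0.234%), below the WT hepatocyte share (0.474% to 1.26%). After thinning the limits overlapped, with up to 0.236% in EC-like cells and 0.0184% to 0.547% in hepatocytes. Ppp1r3b was found in 3.79%, 4.14%, 26.1% and 2.51% of thinned hepatocytes against 0%, 0%, 4.71% and 0% of thinned B cell-like cells. Ppp1r3c was found in 2.35%, 1.87%, 14.8% and 0.965%, against 0%, 0.248%, 1.37% and 0%. After thinning, TAZKO thus still had the largest share for Ppp1r3b and Ppp1r3c, and DKO for Ppp1r3g. Tat was found in 53.4%, 68.4%, 89.2% and 79.1% of thinned hepatocytes, with 6.27%, 9.90%, 14.5% and 7.51% in thinned B cell-like cells.

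Position along the liver lobule was read from landmark genes that are not members. Hepatocytes of each library were ranked by the share of 7 pericentral genes among UMIs of these and 6 periportal genes and divided into 5 equal groups, from group 1 (most periportal) to group 5 (most pericentral). Pericentral landmark UMIs were more abundant in TAZKO, at 2431 CPM against 440 in WT, 894 in YAPKO and 993 in DKO, and no cell held any in groups 1 and 2 of WT and of YAPKO and in group 1 of DKO. Cells without them also numbered 334 of 450 in WT group 3, 222 of 231 in YAPKO group 3, 325 of 585 in DKO group 2 and 102 of 623 in TAZKO group 1, so the lower groups hold cells with tied shares. Depth and mitochondrial share also differed between groups, and their part was not tested.

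Fbp1 was lower in group 5 than in group 1 in every library, with a log2 ratio of -0.73 in WT, -0.84 in YAPKO, -0.97 in TAZKO and -0.78 in DKO. Slc2a2 was lower too, at -0.95, -0.72, -0.74 and -0.40, and both genes kept this direction when only Cyp2e1 and Cyp2f2 served as landmarks, though the DKO value of Slc2a2 then became -1.32. Gys2 was lower in group 5 of WT (-0.73), YAPKO (-0.80) and DKO (-0.46, or -1.23 with Cyp2e1 and Cyp2f2 alone), while its interval in TAZKO spanned 0 (-0.24 to 0.51). Ppp1r3b was higher in group 5 of YAPKO (0.74), TAZKO (0.45) and DKO (1.16), though with Cyp2e1 and Cyp2f2 alone the DKO value was 0.08. Tat was lower in group 5 of WT (-0.67), YAPKO (-0.39) and TAZKO (-0.56), also with those landmarks, and higher in DKO (0.26). The DKO values of Tat and of Ppp1r3c (1.39) changed sign with those landmarks, to -0.73 and -0.43. Ppp1r3g in DKO went from 63.8 CPM in group 1 to 87.4 in group 5, and in every group it lay above all groups of the other libraries. Ppp1r3b in TAZKO ranged from 146 to 199 CPM over the 5 groups, against 10.7 to 34.9 CPM over all groups of the other libraries.

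**Figure D4:**
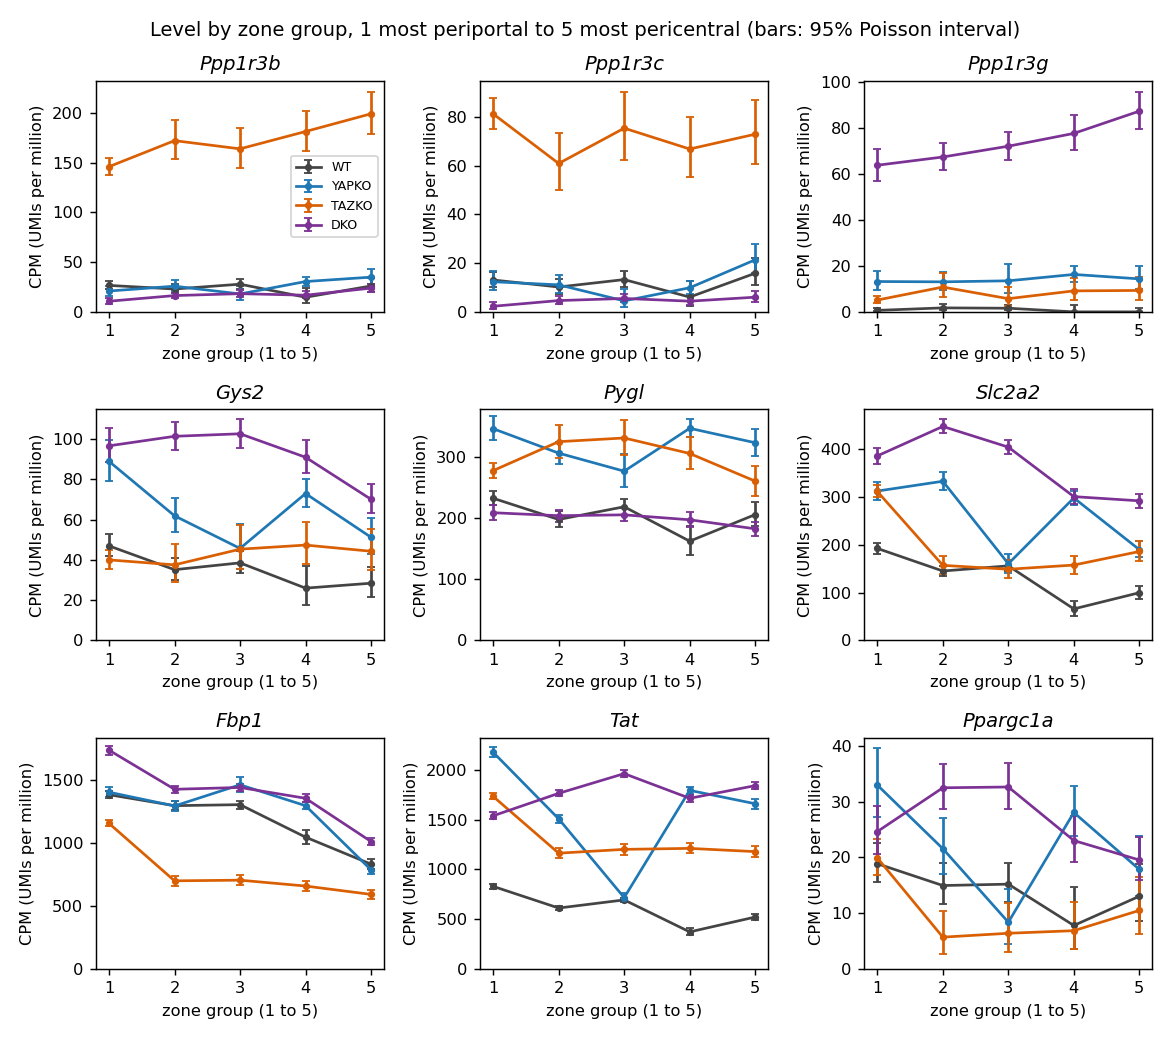
Level of each member in CPM (vertical axis) in 5 equal groups of hepatocytes from most periportal (1) to most pericentral (5), a line per library, with 95% Poisson intervals. Fbp1 had its lowest level in group 5 of every library, and the TAZKO line of Ppp1r3b stayed at 146 CPM or more.

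Other cell types were taken from clusters of the remaining cells of each library, named after marker genes with the ending -like. Some hepatocyte RNA reaches all droplets, so each level is set beside the level expected from the amount of 8 other hepatocyte transcripts in the same cells. That amount corresponded to 3.45% hepatocyte RNA in the non-hepatocytes of WT, 1.14% in YAPKO, 4.62% in TAZKO and 3.10% in DKO. These cells include the clusters that could not be named, which stood at 7.04%, 3.94%, 7.94% and 19.9%. In the named types the share ran from 1.25% to 7.76% in WT and from 0.728% to 2.87% in DKO.

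Pygl was highest outside hepatocytes in neutrophil-like cells, with 496, 548, 334 and 460.4 CPM in WT, YAPKO, TAZKO and DKO, where hepatocyte RNA would give 16.6, 7.85, 19.8 and 5.76. In KC-like (Kupffer cell-like) clusters it stood at 102, 109.8, 133 and 81.1 CPM against an expected 3.89, 2.06, 10.0 and 1.46. The interval of Pygl lay above the expected level in both types in all 4 libraries, and over all types in 4 of 12 in WT, 10 of 11 in YAPKO, 10 of 12 in TAZKO and 8 of 10 in DKO. Ppp1r3b was also highest in neutrophil-like cells, with 55.4, 33.7, 95.3 and 54.2 CPM, from 39, 23, 12 and 18 UMIs. Its interval lay above the expected level in 5 of 12 cell types in WT, 7 of 11 in YAPKO, 9 of 12 in TAZKO and 5 of 10 in DKO. Those of TAZKO included EC-like clusters with 16.8 against 6.48 CPM, and B cell-like clusters with 27.2 against 9.74.

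BEC-like clusters of 54 cells in WT, 32 in YAPKO and 27 in TAZKO held Slc2a2 at 177, 129 and 269 CPM, where 10.5, 10.2 and 19.9 were expected. They also held Ppargc1a at 34.3, 33.4 and 35.0 CPM, where 1.07, 0.893 and 1.15 were expected, from 21, 15 and 10 UMIs. No cluster of DKO could be named BEC-like. Over all types, Ppargc1a passed the expected level in 1 of 12 in WT, 3 of 11 in YAPKO, 4 of 12 in TAZKO and 0 of 10 in DKO. Gys2 passed the expected level in 0 of 12 types in WT, 0 of 11 in YAPKO, 0 of 12 in TAZKO and 1 of 10 in DKO, and its highest level in a named type was 15.9 CPM, from 2 UMIs. With 3 or more UMIs, Ppp1r3c passed it in 1, 0, 1 and 2 types and Ppp1r3g in 0, 0, 1 and 1, where the expected level of Ppp1r3g in WT itself rests on 20 UMIs. The 134 Ppp1r3g UMIs found outside hepatocytes in DKO included 100 in unnamed clusters. Fbp1 passed the expected level in 1, 4, 0 and 2 types and Tat in 3, 5, 1 and 6.

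**Figure D5:**
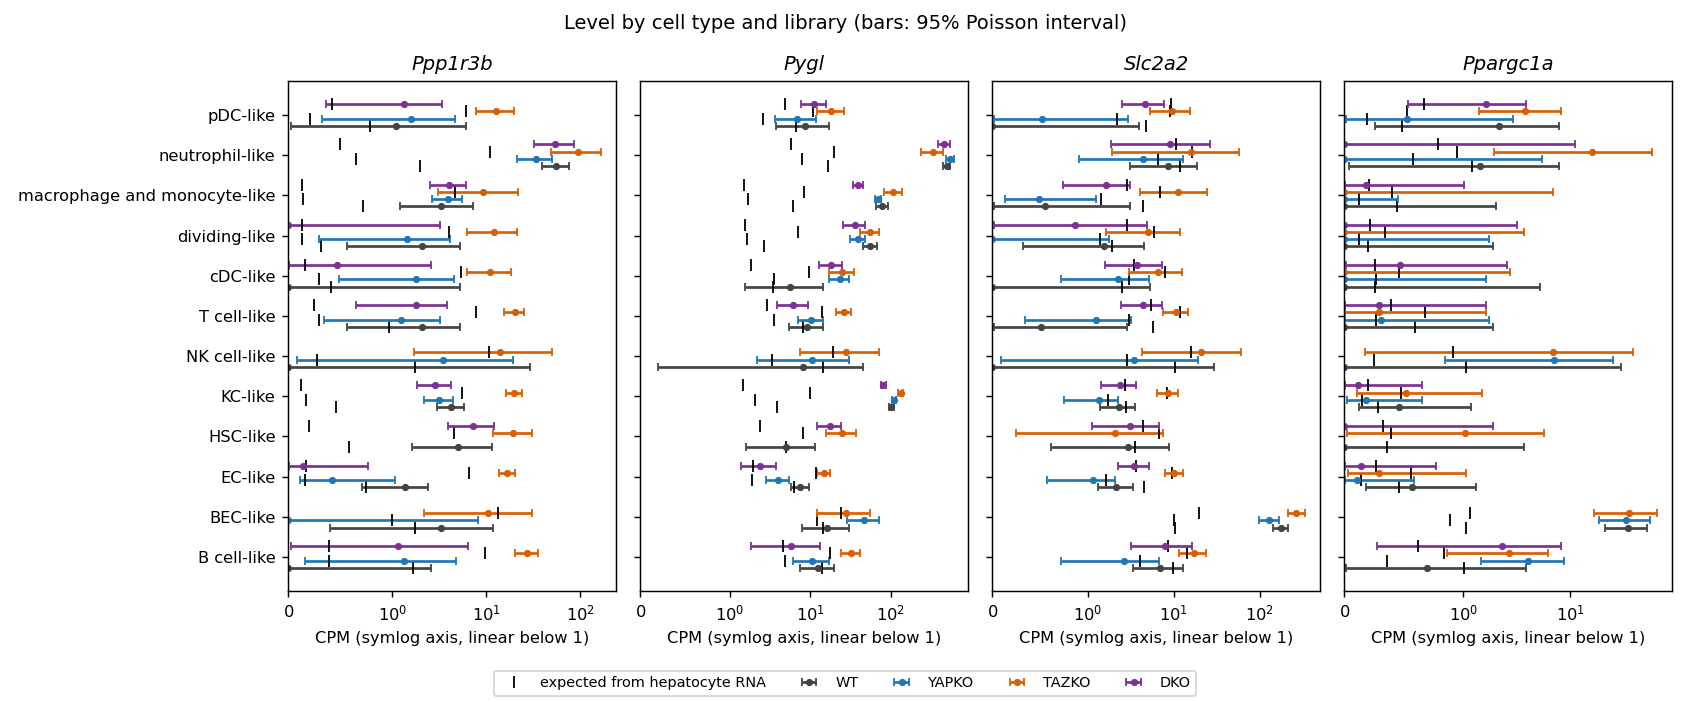
Level in CPM (symlog axis) of 4 members in each named cell type, a point per library with its 95% Poisson interval, and a black tick for the level expected from hepatocyte RNA. Pygl in neutrophil-like and KC-like cells, and Slc2a2 and Ppargc1a in BEC-like cells, lay to the right of their ticks.

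Markers of other cell types found among the hepatocytes were summed by list. The 7 neutrophil markers reached 238 CPM in WT, 166 in YAPKO, 46.2 in TAZKO and 42.6 in DKO, with S100a9 the most abundant. The 7 BEC markers reached 356, 857, 344 and 941 CPM. Of these sums, Krt18 alone gave 183 CPM in WT and 348 in YAPKO, and Krt8 alone 172 in TAZKO and 456 in DKO. Whether the UMIs of the BEC markers came from BECs was not tested. In TAZKO, markers of EC stood at 196 CPM against 96.9 in WT, T cell markers at 49.7 against 12.7, and B cell markers at 38.6 against 12.7. The sum for plasmacytoid dendritic cells was lower, at 324 against 449, but Bst2 alone gave 306 CPM in TAZKO and 448 in WT. It therefore describes Bst2 and not the other markers of that list. The part of these markers in the levels of Pygl, Ppp1r3b, Ppp1r3c, Slc2a2 and Ppargc1a was not tested. Hepatocytes were also left out where markers of EC, Kupffer cells, T cells, B cells and neutrophils together exceeded 0.5% of UMIs. The same members were then past 2-fold in all 3 comparisons. BEC markers and those of the remaining types were not part of this filter.

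Genes of the same pathways were compared by list, relative to the median of all genes. Of all genes compared, 2.97% in YAPKO, 9.06% in TAZKO and 8.56% in DKO lay past 2-fold. No list was tested against these shares, and a single call in a short list says little about the list. Of the glycogen synthesis genes, 0 of 5 compared in YAPKO, 0 of 4 in TAZKO and 0 of 5 in DKO lay past 2-fold, and Ugp2, which makes the glucose donor, was most abundant at 176, 205, 324 and 272 CPM. Of the glycogen breakdown genes, 0 of 6, 0 of 7 and 1 of 8 did so, the last being Stbd1, a glycogen-binding protein, at 15.6 CPM in WT and 57.6 in DKO. Of the other subunit genes of protein phosphatase 1, only the catalytic Ppp1ca, Ppp1cb and Ppp1cc had enough UMIs, and 0 of 3 lay past the limit in each library, with Ppp1ca at 63.9, 92.4, 119.9 and 115 CPM. The pathway lists were compared under the reported setting and not under the alternatives.

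Of genes for glucose phosphorylation, release and transport, 0 of 5 in YAPKO and 0 of 5 in TAZKO lay past the limit. In DKO 1 of 7 did so, against 8.56% of all genes. This was G6pc, which frees glucose for release and was lower, at 499 CPM in WT and 309 in DKO. In hepatocytes with at least 1% mitochondrial UMIs it stood at 622 and 449.9 CPM, short of the limit after subtraction of their median, and in the others at 197 and 46.4 CPM. Gluconeogenesis genes had 0 of 8 past the limit in each library, and Pck1 stood at 1679.5, 2735, 1287 and 2179 CPM. In glycolysis, 10, 9 and 10 genes were compared. Pfkfb3, which makes a regulator of the pathway, was higher in all 3 libraries, and Ldha was lower in TAZKO. Pfkfb3 stood at 1.67 CPM in WT and at 6.03, 7.24 and 11.2 in YAPKO, TAZKO and DKO. At this low WT level it met the minimum of UMIs for a comparison only through the library where it was high. As for Ppp1r3g, its calls as higher are therefore not independent of that minimum. The shares of all genes are no measure for them. Among amino acid breakdown genes 0 of 11, 1 of 11 and 0 of 11 lay past the limit, the 1 being Sds in TAZKO.

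Patterns over the 20 groups (4 libraries by 5 zone groups) were compared by Pearson's r of log2 levels among 9916 genes with at least 200 UMIs. The groups of a library share its depth and composition, so r is a description. Members were left out of each ranking and are compared with each other separately. The other genes most like Ppp1r3g were Tut4 (0.95), Efhd2 (0.95) and Cast (0.94), those most like Ppp1r3b were Gm30931 (0.97), Mug2 (0.95) and Zbtb5 (0.95), and those most like Ppp1r3c were Acsl1, Cyp4a12a and Syvn1 (0.96 each). Ppp1r3b and Ppp1r3c had an r of 0.97 with each other, above that of Ppp1r3c with any other gene ranked, and Ppp1r3g had -0.19 and -0.35 with them. With Gys2, Slc2a2 and Tat, Ppp1r3g had 0.88, 0.81 and 0.81. Gys2 was most like Mmp15, Abcb4 and Alcam (0.94 each), and Slc2a2 most like Alcam (0.98), Ivns1abp (0.97) and Mmp15 (0.94), with an r of 0.90 between Gys2 and Slc2a2. Tat was nearest to Slc38a2, Slc25a25 and Sdc1 (0.97 each), Pygl to Mocs1 (0.92), Stat5b (0.91) and Tmie (0.90), and Ppargc1a to C6 (0.92), Car14 (0.91) and Itih5 (0.90). Fbp1 was nearest to Hsd17b13 (0.95), Sds (0.95) and Uqcrc2 (0.92), and Hsd17b13 is itself a landmark used to form the groups.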

How the data were processed

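The deposited UMI counts of the 4 libraries were used as given. The authors made these counts with Cell Ranger (6.0.1 per the labels, 4.0.0 per the file headers) on mm10. Members and gene lists were chosen with earlier results of these data known, and no test between genotypes was run. Cells outside the hepatocyte rule were clustered within each library (2000 variable genes, 25 components, 20 neighbors, Leiden resolution 1) with leidenalg 0.10.2, scikit-learn 1.9.0 and scipy 1.17.1 in Python 3.11.15. Clustering of the pooled libraries was tried first and replaced because several types split by library, and the rule that leaves mixed clusters unnamed was added after those clusters were seen. Doublets were not removed. Named genes were the members, the 2 genes of each list with the most UMIs, up to 2 more of it past 2-fold, and the 3 genes most like each member. Other genes named were chosen after their values were seen. The 7 motifs and the order of cells with equal landmark shares were also set after the data were seen. Overlap with other annotated genes on the same strand was found only for Ppargc1a, with 3. Intervals and 2-fold counts were tested on counts simulated from a Poisson model, the one that the intervals assume. These held no variation between cells or libraries, so the check covers counting error only.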

Additional observations from a re-analysis of the deposited data

Results flagged for a closer look

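Hepatocyte-rule barcodes that the limits on detected genes left out also held the members that were higher in hepatocytes, at levels whose 95% intervals lay above that of WT in the same kind of barcode. In barcodes with under 500 genes, Ppp1r3g stood at 18.02 CPM in YAPKO (8 UMIs) and 94.61 CPM in DKO (25 UMIs), against 0.665 CPM in WT (3 UMIs). In barcodes with over 6000 genes, Ppp1r3g stood at 12.96 CPM in YAPKO and 66.59 CPM in DKO, against 3.09 CPM in WT. Ppp1r3b in TAZKO stood at 187.3 CPM with under 500 genes and 163.5 CPM with over 6000 genes, against 18.6 and 34.0 CPM in WT. Ppp1r3c in TAZKO stood at 52.94 and 50.64 CPM, against 3.77 and 12.7 CPM in WT. The interval of Ppp1r3g in TAZKO overlapped that of WT in both kinds of barcode. In barcodes with over 6000 genes, all 4 of these ratios to WT were smaller than in hepatocytes and below their ranges over the alternatives, and the WT level of Ppp1r3g lay above that in hepatocytes (1.04 CPM). The TAZKO barcodes with over 6000 genes numbered 12.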

How the results depend on the processing

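Over 11 alternatives, 142 of 297 member ratios to WT stayed within their counting interval and 155 moved beyond it. Ppp1r3g in DKO ranged from 5.56 to 7.45 (log2), Ppp1r3b in TAZKO from 2.39 to 3.79, Ppp1r3c in TAZKO from 2.36 to 3.68 and Ppp1r3c in DKO from -1.71 to -0.30. Ppp1r3g in DKO and Ppp1r3b and Ppp1r3c in TAZKO were past 2-fold in every setting. Counts of members past 2-fold as reported were 1 higher and 0 lower in YAPKO, 3 and 1 in TAZKO, and 1 and 2 in DKO. Counts of all genes were 148 and 129, 342 and 513, and 486 and 384. The values below differed from these, and the cause was not tested except where said. Smaller changes in a count are not all listed. In TAZKO, Ppp1r3g was not counted with the 6% rule, with 500 to 6000 UMIs, after thinning, or on either side of 1% mitochondrial UMIs. Tat was higher there after thinning and under 1% mitochondrial UMIs. After thinning, Tat also took the place of Ppp1r3g in YAPKO.

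With a 1% hepatocyte rule, members higher were 2 in YAPKO and 4 in DKO, 1 was lower in DKO, and genes lower were 581 in YAPKO and 757 in DKO. With a 6% rule, 0 members were lower in TAZKO, and 3 were higher and 1 lower in DKO. With limits of 500 to 6000 UMIs, members higher were 0 in YAPKO, where Ppp1r3g had too few UMIs, and 3 in DKO, with 1 lower in DKO. Genes were then 248 lower in YAPKO, 864 higher and 1641 lower in TAZKO, and 189 higher in DKO. Without the upper limit, 261 genes were higher in YAPKO and 0 members lower in TAZKO. With the mean of each cell's CPM, 2 members were higher in YAPKO and 4 in DKO, and genes were 316 higher and 382 lower in YAPKO, 806 and 1560 in TAZKO, and 700 lower in DKO. Thinned to 2000 UMIs, 64 genes were higher in YAPKO and 184 in DKO, and 2 members were higher and 0 lower in DKO. Thinning leaves fewer genes to compare.

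In hepatocytes with at least 1% mitochondrial UMIs, chosen after the data were seen, 0 members and 261 genes were lower in TAZKO, and 3 members were higher and 1 lower in DKO. In the others, also chosen then, 0 members were higher and 341 genes lower in YAPKO, 1118 genes higher and 936 lower in TAZKO, and 273 higher and 733 lower in DKO, with 1 member lower. Without subtracting the median, members higher were 2 in YAPKO and 4 in DKO, with 0 lower in TAZKO and 1 in DKO. In TAZKO, Tat was then higher in addition to Ppp1r3b, Ppp1r3c and Ppp1r3g. Genes were then 495 higher and 56 lower in YAPKO, 1984 and 110 in TAZKO, and 1217 and 175 in DKO, which follows from leaving the shift in. With at least 20 UMIs, which adds genes, they were 406 and 385, 890 and 908, and 921 and 775. Allowing 20% mitochondrial UMIs left 27 of 27 member ratios within their intervals. So did leaving out hepatocytes with over 0.5% markers of EC, Kupffer cells, T cells, B cells and neutrophils together. Scaling without the 50 most abundant genes moved 20 of 27 ratios and left the member counts as reported.

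Of the zone ratios, 49 stayed within their interval, 18 moved beyond it and 3 moved beyond it with a change of sign. Gys2 and Pygl in TAZKO changed sign within their intervals with Cyp2e1 and Cyp2f2 alone. With Cyp2e1 and Cyp2f2 alone, Ppp1r3c in DKO became -0.43 and Tat in DKO -0.73, and Tat in DKO became -0.0538 with at least 1% mitochondrial UMIs. The WT value of Ppp1r3g rests on 20 UMIs, which limits every ratio to it.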

Other observations

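Lists of genes that respond to time of day, feeding and stress were compared in hepatocytes in the same way, and some genes were named after their values were seen. Of all genes compared, 2.97% in YAPKO, 9.06% in TAZKO and 8.56% in DKO lay past 2-fold, and no list was tested against these shares. Sampling time is not in the labels, and its part in the members' levels was not tested. Of 11 clock genes compared in DKO, 6 were higher past 2-fold (Cry2, Per2, Per3, Dbp, Tef and Ciart) and 2 were lower (Arntl and Clock). In YAPKO 1 was higher and 0 lower of 9, and in TAZKO 1 was higher and 1 lower of 9. More genes were compared in DKO, so some of the 11 met the minimum of UMIs only through their DKO counts. A call as higher in such a gene is not independent of that minimum. Which of the 6 this concerns was not tested, so the shares of all genes and of the other libraries are no measure for them. Dbp stood at 5.94 CPM in WT, 12.7 in YAPKO, 3.55 in TAZKO and 132 in DKO, and Arntl, whose protein is a core activator of the clock, at 8.34, 15.2, 22.4 and 1.14 CPM.

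Among glucocorticoid-responsive genes, Mt1, Mt2 and Lpin1 were higher in YAPKO and lower in TAZKO past 2-fold, and in DKO Per1 was higher and Mt2 lower, of 8 genes each, with Mt1 at 217, 1753, 101 and 165 CPM. Fasting and feeding responsive genes had 0 higher and 2 lower of 8 in YAPKO, 0 and 3 of 8 in TAZKO and 1 and 3 of 9 in DKO, with G0s2 at 112, 29.3, 109.9 and 22.6 CPM. Of the hormone receptor and transcription factor genes, 1, 3 and 2 of 18 were higher and 0, 1 and 0 lower, and Srebf1 and Mlxipl were among those higher in TAZKO. Immediate early and heat shock genes had 1 higher and 4 lower of 10 in YAPKO, 0 and 5 of 9 in TAZKO and 3 and 2 of 11 in DKO, and Hspa1a and Hspa1b were lower in each. In this list and the fasting and feeding list, more genes were also compared in DKO. The limit given for the clock genes thus holds for their calls as higher in DKO. Of the sex-linked genes 0 of 4 lay past 2-fold in each library. Mup20, a urinary protein gene, made up 7.45% of hepatocyte UMIs in WT, 4.26% in YAPKO, 0.702% in TAZKO and 4.17% in DKO.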
